A study of Homo sapiens with 4 samples.

Results

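The genes described here are the aminoacyl-tRNA synthetases, 36 genes chosen by symbol from the 24424 symbols counted in each library, of which 20 encode cytosolic enzymes and 16 encode mitochondrial enzymes. All 36 symbols were found. Each synthetase joins a particular amino acid to its tRNA, and the charged tRNA then goes to the ribosome. The cytosol and the mitochondrion mostly use enzymes from separate nuclear genes, and the symbol of the mitochondrial enzyme ends in 2. In the cytosol, several of the enzymes sit with scaffold proteins in the multi-synthetase complex. Uncharged tRNA activates the kinase GCN2 (EIF2AK4), whose signal raises translation of the transcription factor ATF4, and several cytosolic synthetase genes are known ATF4 targets.

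The cells were BEAS-2B, a human bronchial epithelial line made immortal with viral genes, and RNA sequencing measured their transcripts in 4 groups of 1 library each, all of wild-type genotype. The siOCLN+LPS library came from cells given an siRNA against occludin for 24 h and then LPS (bacterial lipopolysaccharide) for 2 h. The library labelled wtOCLN+LPS, called the wtOCLN-labelled library below, came from cells transfected with wild-type occludin for the same time and then given LPS for 2 h. The LPS library had 2 h of LPS, the control library had no treatment, and the labels of neither mention a transfection or a mock transfection, so that transfection and the occludin reagents cannot be told apart. Occludin, a protein of tight junctions, is encoded by OCLN.

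Library totals were 17476333 counts in siOCLN+LPS, 17500031 in the wtOCLN-labelled library, 13867494 in LPS and 15889736 in control, and levels are given in CPM, the counts of a gene for every 1000000 counts in its library. OCLN stood at 21.0 CPM in siOCLN+LPS, 29.7 CPM in the wtOCLN-labelled library, 50.4 CPM in LPS and 55.4 CPM in control. The library labelled as given wild-type occludin thus held 0.588 times the OCLN level of LPS (95% interval 0.524 to 0.660), which goes against its label. All 8 bronchial epithelial markers were detected in every library. They summed to 2878 CPM in siOCLN+LPS, 2893 in the wtOCLN-labelled library, 1442 in LPS and 1628 in control. In each transfected library, 6 of them had a higher level than in LPS and 2, KRT5 and EPCAM, a lower one. KRT5 had 19.1 CPM in siOCLN+LPS, 19.9 in the wtOCLN-labelled library, 22.4 in LPS and 18.9 in control. EPCAM was scarce, at 1.26 CPM in siOCLN+LPS, 1.6 in the wtOCLN-labelled library, 2.67 in LPS and 2.01 in control. The 8 fibroblast markers summed to 171 CPM in siOCLN+LPS, 179 in the wtOCLN-labelled library, 129 in LPS and 152 in control, with 1 to 4 of them at 0. Among them PDGFRB was higher in the transfected libraries, at 49.4 CPM in siOCLN+LPS, 55.4 in the wtOCLN-labelled library, 13.8 in LPS and 12.3 in control. Of the leukocyte markers, 5 summed to 4.98 CPM in siOCLN+LPS, 8.06 in the wtOCLN-labelled library, 17.4 in LPS and 17.2 in control. CD68 made up most of that sum, at 4.98 CPM in siOCLN+LPS, 7.49 in the wtOCLN-labelled library, 16.6 in LPS and 16.6 in control, and was lower in both transfected libraries. CD3E was at 0 in every library and PTPRC at 0 to 0.189 CPM. The part of these marker levels in the results below was not tested. In a bulk sample, fewer cells of a type and less RNA per cell cannot be told apart.

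The promoters are shown first, because 6 cytosolic synthetase genes carry the same 8 letters in their windows. A RefSeq promoter window (build GRCh38.p14, upstream sequence and the first bases of the gene) was matched for 30 of the 36 members, and DARS, LARS, VARS, YARS, AARS2 and VARS2 had no entry. TGATGCAA, the C/EBP-ATF element, was searched on both strands. It was found in 6 of 16 cytosolic and 0 of 14 mitochondrial members with a window, against 304 of all 35116 promoters, or 0.866%. Here and below, a member was counted if any of its windows held the match, and the 30 members had 39 windows. The share of all promoters is counted per promoter, so the 2 are not in the same unit. The windows below are written 5′ to 3′ on the strand of the gene, and the capitals mark the element or its reverse complement.
AARS: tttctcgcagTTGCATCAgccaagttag
CARS: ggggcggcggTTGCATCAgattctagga
IARS: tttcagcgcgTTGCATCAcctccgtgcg
MARS: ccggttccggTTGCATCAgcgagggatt
NARS: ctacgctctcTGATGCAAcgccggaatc
TARS: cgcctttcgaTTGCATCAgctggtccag
The windows lie at chr16:70289676-70289703 on the minus strand for AARS, chr11:3057408-3057435 on the minus strand for CARS, and chr9:92293693-92293720 on the minus strand for IARS. Those of the other genes lie at chr12:57488054-57488081 on the plus strand for MARS, chr18:57621805-57621832 on the minus strand for NARS, and chr5:33440957-33440984 on the plus strand for TARS. The element began 187 bases upstream of the RefSeq gene start in AARS, 13 in IARS, 4 in MARS and 2 in CARS. It began 2 bases past the gene start in TARS and 14 past it in NARS. In MARS, CARS, IARS, TARS and NARS it therefore lay at or next to the start of transcription as annotated.

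A looser form, TGATGNAAN, which all 6 genes above also hold, was found in 7 of 16 cytosolic members, in 1 of 14 mitochondrial members (YARS2) and in 3.61% of all promoters. It added GARS, shown because GARS is among the members furthest below LPS in the results.
GARS: ttacgcggcgATTTCATCAtgctccgagc
The GARS window lies at chr7:30594834-30594862 on the plus strand, and its match began 34 bases upstream. The WARS promoter is shown for a match to the interferon-stimulated response element, because WARS is known as an interferon-inducible synthetase gene.
WARS: tttcagaaggGAAACTGAAAgaaagagggg
The WARS window lies at chr14:100375383-100375412 on the minus strand, with the match 55 bases upstream. This element was found in 1 of 16 cytosolic members, in 1 of 14 mitochondrial members (EARS2) and in 3.57% of all promoters. A match describes the letters of a window; it is not shown to be a bound site.

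Of the 20 cytosolic synthetases, siOCLN+LPS held 9 at least 1.5-fold below LPS and the wtOCLN-labelled library also held 9, and the other 11 in each lay within 1.5-fold of LPS. No mitochondrial member reached that difference from LPS in either library. Among all tested genes, 15.3% were lower and 9.09% higher than LPS in siOCLN+LPS, and 15.1% lower and 8.59% higher in the wtOCLN-labelled library. The 20 cytosolic genes summed to 2572 CPM in siOCLN+LPS (exact 95% Poisson interval 2548 to 2596), 2467 in the wtOCLN-labelled library, 3990 in LPS and 4219 in control. They took 0.257% of all counts in siOCLN+LPS, 0.247% in the wtOCLN-labelled library, 0.399% in LPS and 0.422% in control. The ratio to LPS was 0.645 (0.637 to 0.653) in siOCLN+LPS and 0.618 (0.610 to 0.626) in the wtOCLN-labelled library. The 16 mitochondrial genes summed to 535 CPM in siOCLN+LPS, 497 in the wtOCLN-labelled library, 572 in LPS and 608 in control, with ratios to LPS of 0.936 (0.908 to 0.965) in siOCLN+LPS and 0.869 (0.842 to 0.896) in the wtOCLN-labelled library. The mitochondrial sum in siOCLN+LPS lay above that of LPS, not below it, with other scalings of the libraries. All intervals cover counting error only. With 1 library per group there is no replicate check and no p-value, so each ratio compares 2 libraries, not 2 conditions. Both ratios of a gene to LPS share the LPS library and are given side by side, not as repeats of each other.

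**Figure D1:**
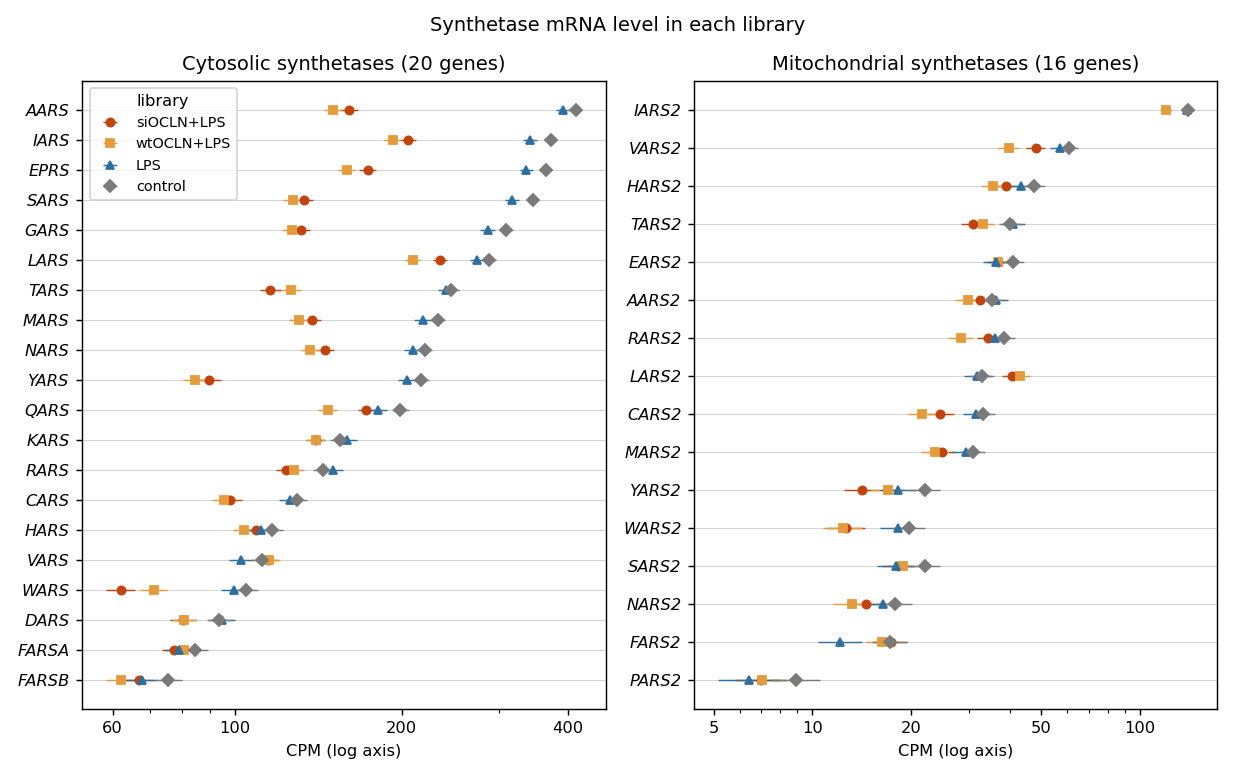
Level of each synthetase in each library, in CPM on a log axis, with cytosolic genes on the left and mitochondrial genes on the right, each panel ordered by level. Points are libraries and bars are exact 95% Poisson intervals; for AARS, at the top left, levels of 161 CPM in siOCLN+LPS, 150 in the wtOCLN-labelled library, 391 in LPS and 414 in control are plotted.

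Genes are called higher or lower where their log2(CPM + 1) values lay at least 1.5-fold apart, among those that reached CPM 1 in 1 library or both. The pseudocount of 1 slightly understates the ratios of low genes, and all 36 members passed the minimum in every comparison, the smallest member count being 89. In siOCLN+LPS against LPS, 9 of 20 cytosolic members were lower and 0 were higher, where 15.3% of all 13505 tested genes were lower and 9.09% higher. The 9 were AARS, EPRS, GARS, IARS, MARS, SARS, TARS, WARS and YARS. In the wtOCLN-labelled library against LPS, 9 of 20 were lower and 0 higher, where 15.1% of all 13493 tested genes were lower and 8.59% higher. The 9 were AARS, EPRS, GARS, IARS, MARS, NARS, SARS, TARS and YARS. Of the 16 mitochondrial members, 0 were higher or lower in either comparison. The median log2 ratio of the cytosolic members was -0.44 in each comparison, and that of the mitochondrial members was -0.15 in siOCLN+LPS and -0.28 in the wtOCLN-labelled library. All tested genes had medians of -0.13 in siOCLN+LPS and -0.15 in the wtOCLN-labelled library. At a threshold of 2-fold, 5 cytosolic members were lower in siOCLN+LPS, where 3.92% of tested genes were, and 5 in the wtOCLN-labelled library, where 3.69% were.

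The 4 members with the lowest ratios to LPS in each comparison were all outside the multi-synthetase complex. AARS, the alanyl-tRNA synthetase, had 161 CPM in siOCLN+LPS, 150 in the wtOCLN-labelled library, 391 in LPS and 414 in control. It was lower than in LPS by 2.43-fold (2.32 to 2.55) in siOCLN+LPS and by 2.60-fold (2.48 to 2.72) in the wtOCLN-labelled library. Both transfected libraries lay below both others, and the share of tested genes with a lower ratio than AARS was 1.68% in siOCLN+LPS and 1.11% in the wtOCLN-labelled library. SARS, the seryl-tRNA synthetase, had 133 CPM in siOCLN+LPS, 127 in the wtOCLN-labelled library, 316 in LPS and 345 in control. Its level was lower than in LPS by 2.38-fold (2.26 to 2.50) in siOCLN+LPS and by 2.49-fold (2.36 to 2.62) in the wtOCLN-labelled library. SARS showed the same split of the 4 libraries as AARS.

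YARS, the tyrosyl-tRNA synthetase, had 89.8 CPM in siOCLN+LPS, 84.6 in the wtOCLN-labelled library, 205 in LPS and 216 in control. This was lower than LPS by 2.28-fold (2.14 to 2.43) in siOCLN+LPS and by 2.42-fold (2.27 to 2.58) in the wtOCLN-labelled library. GARS, the glycyl-tRNA synthetase, encodes both the cytosolic and the mitochondrial form of its enzyme. GARS had 131 CPM in siOCLN+LPS, 127 in the wtOCLN-labelled library, 286 in LPS and 309 in control. The GARS level was lower than in LPS by 2.18-fold (2.07 to 2.29) in siOCLN+LPS and by 2.26-fold (2.15 to 2.38) in the wtOCLN-labelled library. The other gene that serves both compartments, KARS for lysine, was at 140.0 CPM in siOCLN+LPS, 139.9 in the wtOCLN-labelled library, 159 in LPS and 154 in control, inside the threshold.

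TARS, the threonyl-tRNA synthetase, had 116 CPM in siOCLN+LPS, 126.1 in the wtOCLN-labelled library, 240.5 in LPS and 246 in control. It was lower than in LPS by 2.08-fold (1.97 to 2.20) in siOCLN+LPS and by 1.91-fold (1.81 to 2.01) in the wtOCLN-labelled library. WARS, the tryptophanyl-tRNA synthetase, had 62.1 CPM in siOCLN+LPS, 71.2 in the wtOCLN-labelled library, 99.4 in LPS and 105 in control. WARS was 1.60-fold lower than LPS (1.48 to 1.74) in siOCLN+LPS and at a 1.40-fold lower value (1.29 to 1.51), inside the threshold, in the wtOCLN-labelled library. NARS, the asparaginyl-tRNA synthetase, had 145 CPM in siOCLN+LPS, 137 in the wtOCLN-labelled library, 209.6 in LPS and 219.95 in control. NARS was 1.53-fold lower than LPS (1.45 to 1.62) in the wtOCLN-labelled library, and its 1.44-fold lower value (1.37 to 1.52) in siOCLN+LPS did not reach the threshold. For TARS, WARS and NARS, too, both transfected libraries lay below both others.

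Within the multi-synthetase complex the enzymes differed among themselves. The 8 enzymes of the complex held 3 lower members in each comparison with LPS, namely EPRS, IARS and MARS. The share of all tested genes that were lower was 15.3% in siOCLN+LPS and 15.1% in the wtOCLN-labelled library. EPRS, a fused enzyme that charges tRNAs for glutamate and for proline, had 174 CPM in siOCLN+LPS, 159 in the wtOCLN-labelled library, 336 in LPS and 364 in control. EPRS was lower than in LPS by 1.94-fold (1.85 to 2.03) in siOCLN+LPS and by 2.12-fold (2.02 to 2.22) in the wtOCLN-labelled library. IARS, for isoleucine, had 206 CPM in siOCLN+LPS, 193 in the wtOCLN-labelled library, 342 in LPS and 372 in control. Its ratio to LPS was 0.602 (0.576 to 0.628) in siOCLN+LPS and 0.564 (0.539 to 0.589) in the wtOCLN-labelled library. MARS, for methionine, had 138 CPM in siOCLN+LPS, 130 in the wtOCLN-labelled library, 219 in LPS and 232 in control. Its ratio to LPS was 0.629 (0.596 to 0.664) in siOCLN+LPS and 0.596 (0.565 to 0.630) in the wtOCLN-labelled library.

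The other 5 enzymes of the complex, DARS for aspartate, KARS, LARS for leucine, QARS for glutamine and RARS for arginine, stayed inside the threshold. Their ratios to LPS ran over 0.823 to 0.954 in siOCLN+LPS and 0.764 to 0.878 in the wtOCLN-labelled library. The median log2 ratio of the 8 enzymes was -0.26 in siOCLN+LPS and -0.34 in the wtOCLN-labelled library. For the 12 cytosolic members outside the complex it was -0.60 in siOCLN+LPS and -0.54 in the wtOCLN-labelled library, with 6 lower in each comparison. The 3 scaffold proteins AIMP1, AIMP2 and EEF1E1, which hold the complex together, had 0 higher and 0 lower in either comparison. Among all tested genes, 15.3% were lower and 9.09% higher in siOCLN+LPS, and 15.1% lower and 8.59% higher in the wtOCLN-labelled library. A list of 3 is too short to set the scaffold genes apart from other genes. AIMP1 stood at 48.9 CPM in siOCLN+LPS, 44.9 in the wtOCLN-labelled library, 64.0 in LPS and 62.3 in control. AIMP2 went the other way, at 18.7 CPM in siOCLN+LPS, 20.9 in the wtOCLN-labelled library, 17.3 in LPS and 17.6 in control. EEF1E1 had 20.8 CPM in siOCLN+LPS, 21.0 in the wtOCLN-labelled library, 23.9 in LPS and 27.4 in control.

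Neither structural class of enzyme held all the lower members. Class I and class II synthetases have unrelated catalytic folds, and EPRS holds both. Of 9 cytosolic class I genes, 4 were lower in siOCLN+LPS and 3 in the wtOCLN-labelled library. Of 10 cytosolic class II genes, 4 were lower in siOCLN+LPS and 5 in the wtOCLN-labelled library. Beside these counts, 15.3% of all tested genes were lower in siOCLN+LPS and 15.1% in the wtOCLN-labelled library. The difference between the classes was not tested.

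Cytosolic members close to their LPS level included FARSA, whose largest difference over the 4 comparisons was the smallest of any. FARSA encodes the catalytic subunit of phenylalanyl-tRNA synthetase, and FARSB encodes the other subunit. FARSA had 77.6 CPM in siOCLN+LPS, 80.9 in the wtOCLN-labelled library, 79.1 in LPS and 84.5 in control. FARSB had 66.9 CPM in siOCLN+LPS, 62.1 in the wtOCLN-labelled library, 67.7 in LPS and 75.7 in control. The ratio of FARSA to LPS was 0.982 (0.906 to 1.06) in siOCLN+LPS and 1.02 (0.944 to 1.11) in the wtOCLN-labelled library. Per kilobase of the longest GENCODE 29 transcript, FARSA stood at 1.90 times FARSB in siOCLN+LPS, 2.13 in the wtOCLN-labelled library, 1.91 in LPS and 1.83 in control. HARS, for histidine, was at 109 CPM in siOCLN+LPS, 104 in the wtOCLN-labelled library, 111 in LPS and 117 in control, close together in all libraries. VARS, for valine, was the only cytosolic member whose interval lay above 1 in siOCLN+LPS, with a ratio to LPS of 1.12 (1.04 to 1.20) there and 1.12 (1.05 to 1.20) in the wtOCLN-labelled library. CARS, for cysteine, carried the same element as AARS and TARS and had ratios to LPS of 0.779 (0.729 to 0.834) in siOCLN+LPS and 0.757 (0.708 to 0.811) in the wtOCLN-labelled library.

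Most of the lower cytosolic sum came from 7 of the 20 cytosolic genes. AARS alone made up 16.2% of the summed CPM difference between siOCLN+LPS and LPS, and AARS, SARS, EPRS, GARS, IARS, TARS and YARS together made up 78.1%. These 7 genes made up 75.5% in the wtOCLN-labelled library. Around the threshold, whose log2 value is 0.58, MARS at -0.67 was the called member nearest to it in siOCLN+LPS, and NARS at -0.52 the nearest member not called. NARS at -0.61 was the nearest called member in the wtOCLN-labelled library, and CARS2 at -0.53 the nearest not called.

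**Figure D2:**
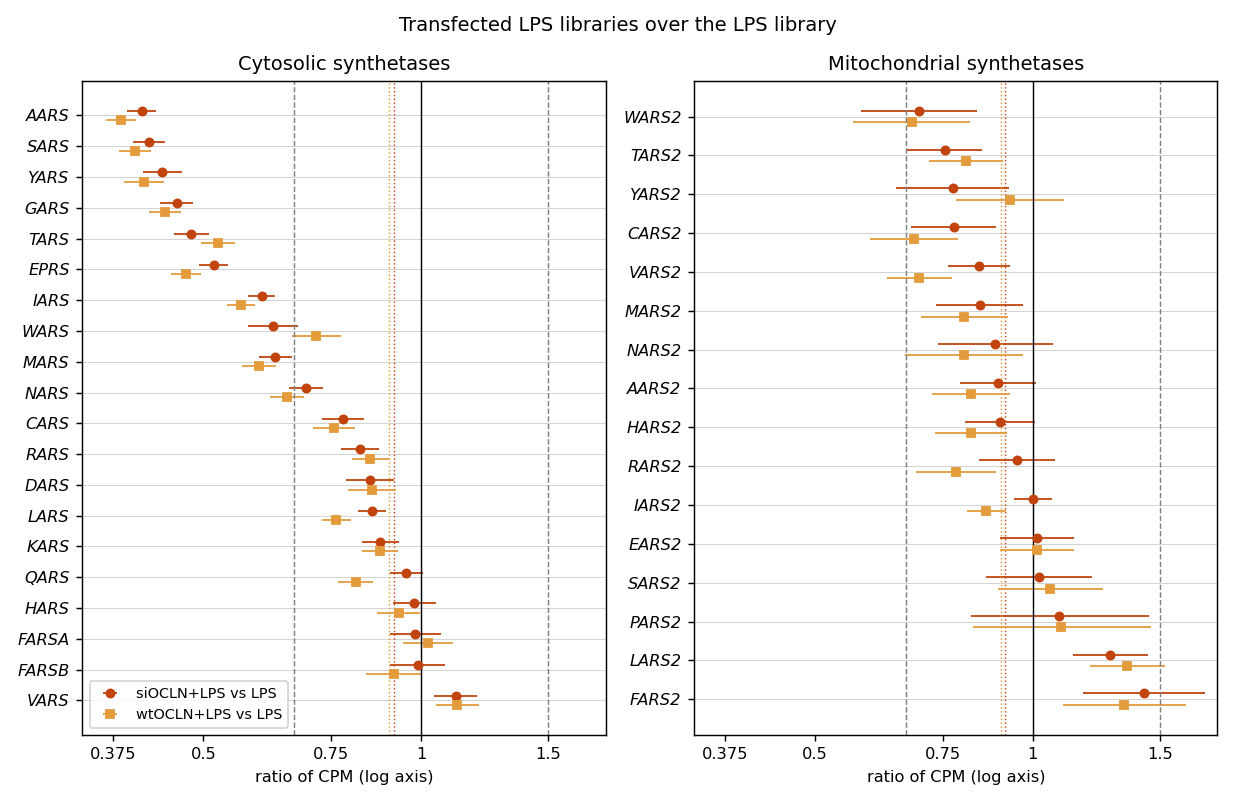
Ratio of CPM to the LPS library for each synthetase on a log axis, with siOCLN+LPS as circles, the wtOCLN-labelled library as squares, and exact 95% intervals that cover counting error only. Dashed lines mark 1.5-fold, the solid line marks no difference and dotted lines the medians of all tested genes; AARS, at the top left, lies at 0.411 in siOCLN+LPS and 0.385 in the wtOCLN-labelled library, and every mitochondrial point lies between the dashed lines.

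Per kilobase of transcript, the order of the members by level differed between the transfected and the other libraries. SARS stood first in every library, at 70.7 CPM per kb in siOCLN+LPS, 67.6 in the wtOCLN-labelled library, 168 in LPS and 184 in control. AARS stood in place 9 of 36 in both transfected libraries and in place 2 in LPS and control. QARS stood in place 2 in siOCLN+LPS, 4 in the wtOCLN-labelled library, 10 in LPS and 8 in control. KARS stood in place 3 in both transfected libraries, 9 in LPS and 11 in control. In siOCLN+LPS, KARS at 57.8 and RARS at 57.5 CPM per kb were neighbours that lay closer than counting error. The cytosolic median was 40.9 CPM per kb in siOCLN+LPS, 40.3 in the wtOCLN-labelled library, 63.6 in LPS and 65.3 in control. The highest cytosolic level stood at 3.56 times the lowest in siOCLN+LPS and at 8.36 times the lowest in LPS. With 1 library per group, the spread between cultures behind these places is unknown.

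**Figure D3:**
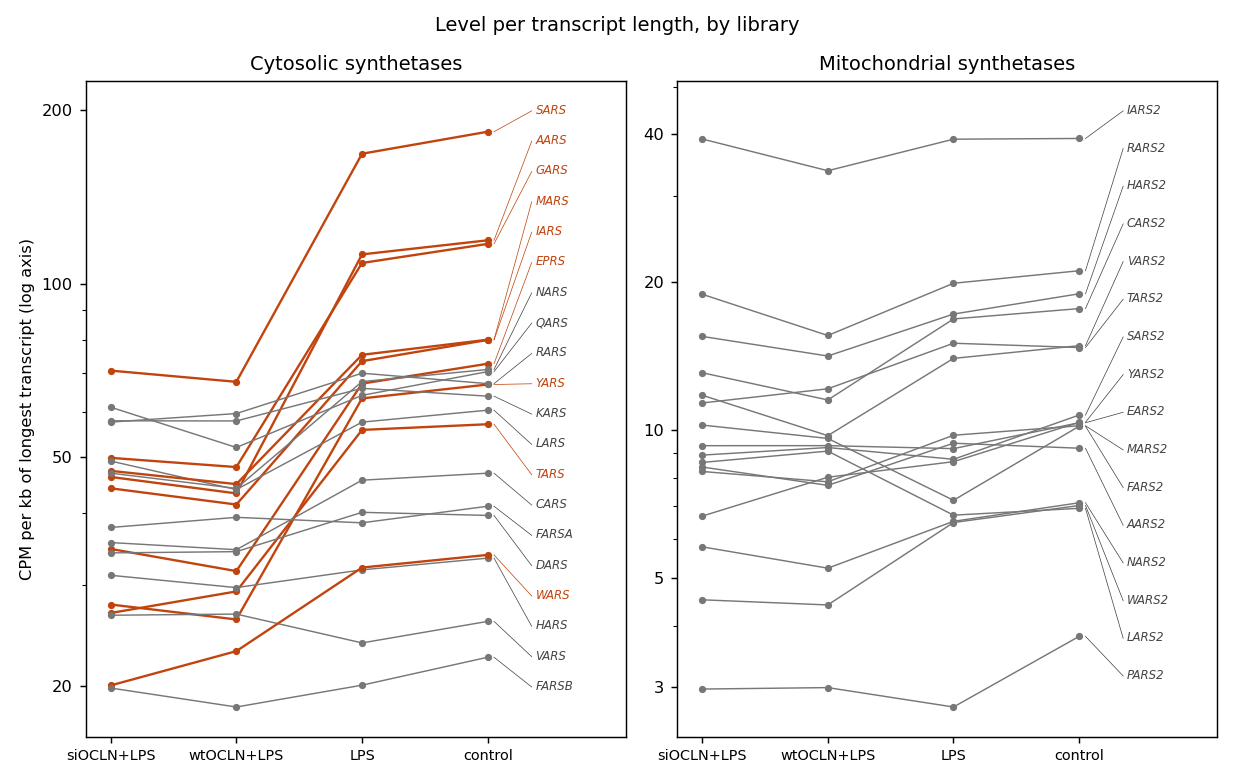
Level of each synthetase in CPM per kilobase of its longest transcript, on log axes of different range for cytosolic (left) and mitochondrial (right) genes, with lines joining the same gene across libraries. Coloured genes are the 9 that were at least 1.5-fold lower in siOCLN+LPS than in LPS; SARS lies highest in each library and FARSB lowest among cytosolic genes.

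The mitochondrial synthetases were present at lower levels, with medians of 9.10 CPM per kb in siOCLN+LPS, 9.26 in the wtOCLN-labelled library, 9.29 in LPS and 10.4 in control. IARS2, for isoleucine, was highest at 39.2 CPM per kb in siOCLN+LPS, 33.7 in the wtOCLN-labelled library, 39.1 in LPS and 39.2 in control. PARS2, for proline, was lowest at 2.97 CPM per kb in siOCLN+LPS, 2.99 in the wtOCLN-labelled library, 2.73 in LPS and 3.81 in control. Ratios to LPS ran over 0.696 (WARS2) to 1.42 (FARS2) in siOCLN+LPS and over 0.680 (WARS2) to 1.35 (LARS2) in the wtOCLN-labelled library. LARS2, for leucine, had 40.8 CPM in siOCLN+LPS, 43.0 in the wtOCLN-labelled library, 31.9 in LPS and 32.9 in control. Its ratio to LPS was 1.28 (1.14 to 1.44) in siOCLN+LPS and 1.35 (1.20 to 1.52) in the wtOCLN-labelled library, above 1 by more than counting error and inside the threshold. FARS2, for phenylalanine, had 17.3 CPM in siOCLN+LPS, 16.3 in the wtOCLN-labelled library, 12.2 in LPS and 17.2 in control, so that the LPS library alone was low. WARS2, for tryptophan, had 12.7 CPM in siOCLN+LPS, 12.4 in the wtOCLN-labelled library, 18.2 in LPS and 19.8 in control, and both transfected libraries lay below both others.

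Setting each mitochondrial gene beside the cytosolic gene for the same amino acid gave 16 pairs, with EPRS used for both EARS2 and PARS2 and FARSA for FARS2. The cytosolic log2 ratio lay below the mitochondrial one in 14 of 16 pairs in siOCLN+LPS against LPS, with a median difference of -0.54. In the wtOCLN-labelled library against LPS it lay below in 11 of 16 pairs, with a median difference of -0.52. SARS and SARS2, the pair furthest apart, differed by -1.27 in siOCLN+LPS and by -1.38 in the wtOCLN-labelled library. SARS2 itself was at 18.3 CPM in siOCLN+LPS, 19.0 in the wtOCLN-labelled library, 18.0 in LPS and 22.1 in control. VARS and VARS2 differed the other way, by 0.40 in siOCLN+LPS and 0.68 in the wtOCLN-labelled library. In LPS against control the cytosolic ratio lay below in 6 of 16 pairs, with a median difference of 0.04. No test was made of these pairs.

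**Figure D4:**
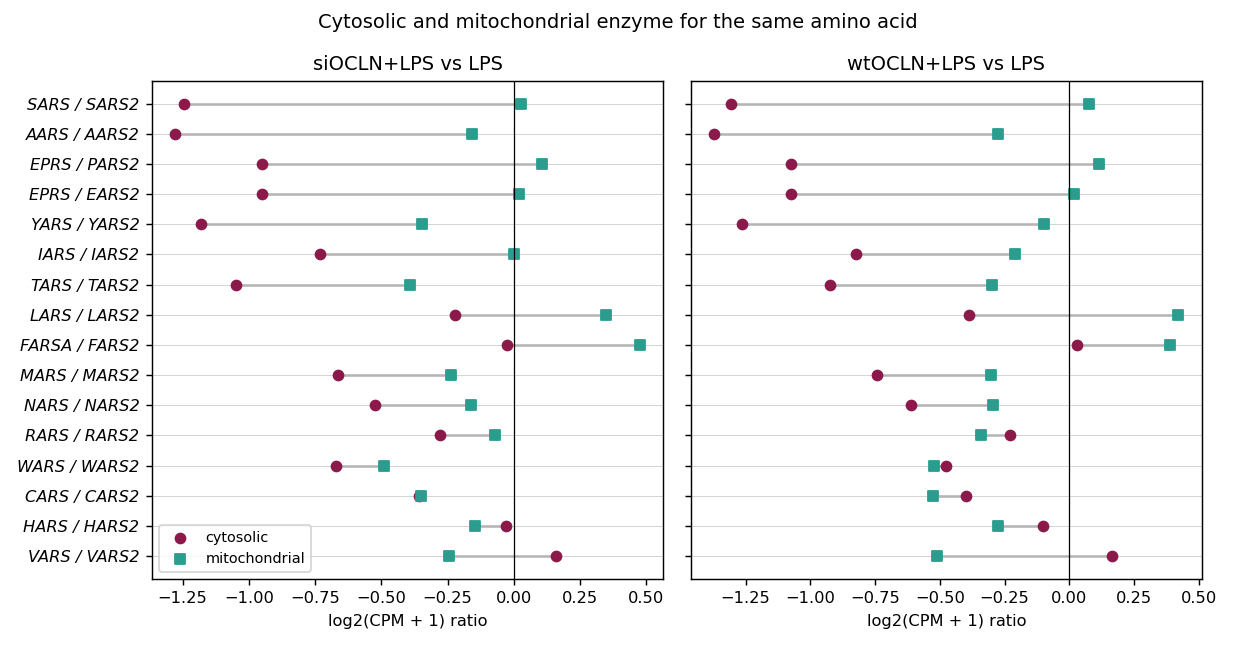
Difference in log2(CPM + 1) from the LPS library for the cytosolic (circle) and mitochondrial (square) enzyme of each amino acid, with siOCLN+LPS on the left and the wtOCLN-labelled library on the right. Pairs in both panels are ordered by the cytosolic minus mitochondrial difference in siOCLN+LPS. The circle lies left of the square in 14 of 16 pairs in siOCLN+LPS and in 11 of 16 in the wtOCLN-labelled library.

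The transfected libraries were close to each other for the synthetases, as they were for most tested genes. In siOCLN+LPS against the wtOCLN-labelled library, 0 of 36 members were higher or lower at 1.5-fold, where 0.755% of all 13109 tested genes were higher and 1.19% lower. Ratios ran over 0.833 (YARS2) to 1.21 (RARS2), and the median log2 ratio was 0.07 for cytosolic and 0.08 for mitochondrial members, against 0.02 for all tested genes. WARS, with a log2 ratio of -0.19, was the cytosolic member lowest in siOCLN+LPS relative to the wtOCLN-labelled library. QARS, at 0.23, was the highest.

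After 2 h of LPS the synthetases, like most tested genes, lay close to control. In LPS against control 0 of 36 members were higher or lower, where 3.45% of all 13551 tested genes were higher and 2.8% lower. The cytosolic median log2 ratio was -0.08 and the mitochondrial one -0.10, against -0.09 for all tested genes, and the cytosolic median reversed its sign with other scalings. The highest cytosolic ratio was that of RARS, 1.04. FARS2 at 0.707 (0.580 to 0.859) and PARS2 at 0.718 (0.545 to 0.943) had the lowest ratios, and neither passed the threshold on the log2(CPM + 1) scale. With control in place of LPS as the reference, 10 cytosolic members were lower and 0 higher in siOCLN+LPS, where 21.6% of tested genes were lower and 8.91% higher. With that reference, 9 were lower and 0 higher in the wtOCLN-labelled library, where 21.6% of tested genes were lower and 8.48% higher.

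Genes of the branch that senses uncharged tRNA were set beside the synthetases. Of 17 genes in this list, 1 was higher (CEBPB, a C/EBP transcription factor gene) and 9 were lower in siOCLN+LPS than in LPS, where 9.09% of all tested genes were higher and 15.3% lower. There were 1 higher and 9 lower in the wtOCLN-labelled library, where 8.59% of all tested genes were higher and 15.1% lower. The medians of the list were -0.82 in siOCLN+LPS and -0.59 in the wtOCLN-labelled library, against medians over all tested genes of -0.13 in siOCLN+LPS and -0.15 in the wtOCLN-labelled library. With control as the reference, 1 was higher and 8 were lower in siOCLN+LPS, where 8.91% of all tested genes were higher and 21.6% lower. With that reference, 1 was higher and 6 were lower in the wtOCLN-labelled library, where 8.48% of tested genes were higher and 21.6% lower. In LPS against control, 1 was higher (CEBPB) and 1 lower (TRIB3), where 3.45% of all tested genes were higher and 2.8% lower. ASNS, the asparagine synthetase gene and a known ATF4 target, had 31.9 CPM in siOCLN+LPS, 26.7 in the wtOCLN-labelled library, 312 in LPS and 329 in control. It was 9.77-fold lower than LPS (8.94 to 10.7) in siOCLN+LPS and 11.7-fold lower (10.6 to 12.9) in the wtOCLN-labelled library. TRIB3, a pseudokinase gene and known ATF4 target, had 49.5 CPM in siOCLN+LPS, 47.0 in the wtOCLN-labelled library, 126.1 in LPS and 209 in control. NUPR1, a stress-induced gene, had 5.21 CPM in siOCLN+LPS, 4.57 in the wtOCLN-labelled library, 39.1 in LPS and 48.5 in control. Both were thus low in the transfected libraries, as ASNS was. DDIT3 and ATF3, which encode stress-induced transcription factors, were at 3.43 and 15.9 CPM in siOCLN+LPS, 5.54 and 18.3 in the wtOCLN-labelled library, 10.8 and 38.1 in LPS, and 11.1 and 27.8 in control. ATF4 mRNA itself, at 302 CPM in siOCLN+LPS, 300.1 in the wtOCLN-labelled library, 403 in LPS and 402 in control, stayed inside the threshold. The kinase EIF2AK4 was at 82.6 CPM in siOCLN+LPS, 78.7 in the wtOCLN-labelled library, 85.6 in LPS and 99.1 in control. CEBPB stood at 835 CPM in siOCLN+LPS, 865 in the wtOCLN-labelled library, 539 in LPS and 346 in control. CHAC1, of the same list, had 5.95 CPM in siOCLN+LPS, 5.54 in the wtOCLN-labelled library, 5.26 in LPS and 4.85 in control. CHAC1 thus was not lower in the transfected libraries.

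Members that carried the TGATGCAA element and members that did not were both among the lower ones. In siOCLN+LPS, 4 of the 6 cytosolic members with the element were lower than in LPS, and 4 of the 10 with a window but no element. These counts were 5 of 6 and 3 of 10 in the wtOCLN-labelled library. Among other tested genes with the element, 15 of 68, or 22.1%, were lower in siOCLN+LPS, against 14.6% of the genes with a window and no element. They were 14 of 69, or 20.3%, against 14.1%, in the wtOCLN-labelled library. SARS, among the lowest members, had a window without the element, and YARS had no window.

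Among the remaining partners of tRNA charging, 1 gene was called in the comparisons with LPS. Of 12 genes listed as partners in the charging, processing or modification of mitochondrial tRNAs, GATC was the only one called in siOCLN+LPS. It was lower there, at 41.5 CPM against 64.6 in LPS, and 0 were called in the wtOCLN-labelled library. The 6 editing and deacylation genes, which remove wrongly attached amino acids or release peptides from tRNA, had 0 called in either comparison, with median log2 ratios of 0.29 in siOCLN+LPS and 0.19 in the wtOCLN-labelled library, above the medians of all tested genes in both. Of 9 elongation factor genes, 8 were tested and 0 were called. Lists this short, beside shares of 15.3% lower and 9.09% higher genes in siOCLN+LPS, do not set these partners apart from other genes.

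**Figure D5:**
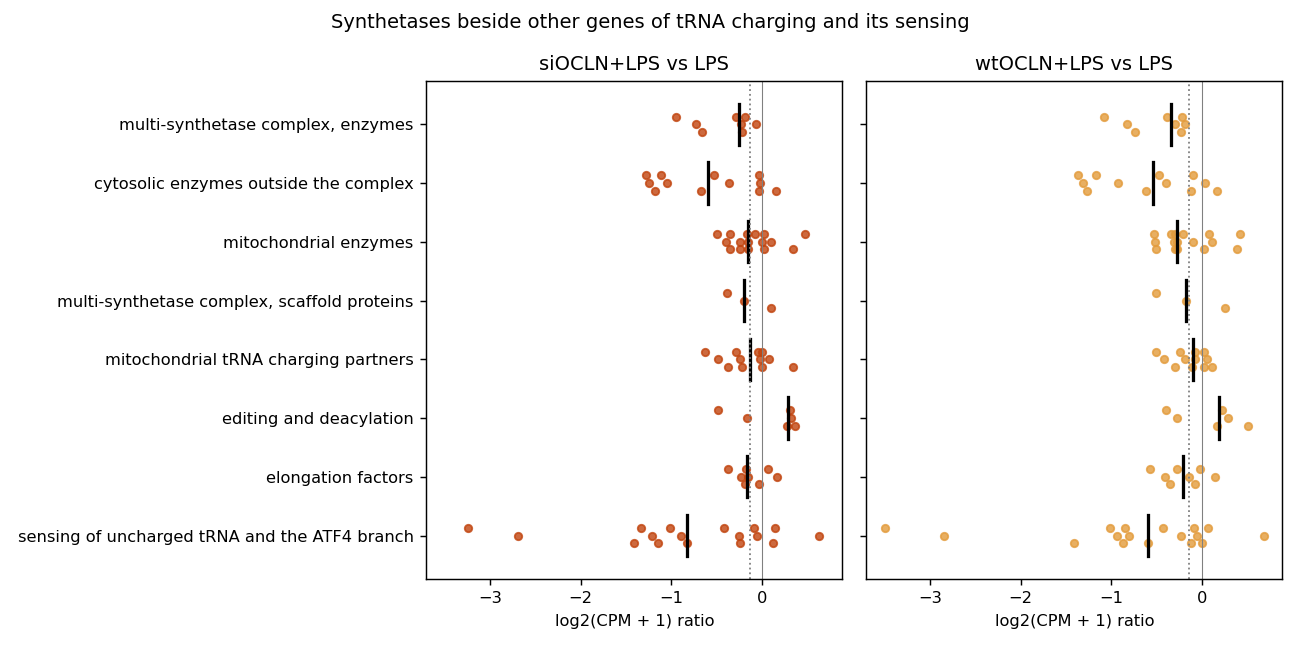
Difference in log2(CPM + 1) from the LPS library for the synthetases and for the other gene lists, with siOCLN+LPS on the left and the wtOCLN-labelled library on the right. Points are tested genes, vertical bars are list medians and the dotted line is the median of all tested genes; the list around ATF4 has medians of -0.82 in siOCLN+LPS and -0.59 in the wtOCLN-labelled library, and its lowest point in each panel is ASNS.

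Some members share exons with other genes, and the counting strand is not given in the sources used here. In GENCODE 29, 17 of 36 members had exons overlapped by a gene on the opposite strand and 6 by a gene on the same strand, and 11 have a pseudogene named after them. MARS overlaps DDIT3, whose level was far below that of MARS in every library. HARS and HARS2 overlap on opposite strands. Other counted genes overlap YARS (S100PBP), WARS (WDR25), KARS (TERF2IP) and SARS2 (MRPS12) on the opposite strand, and VARS2 (GTF2H4) on the same strand. What these overlaps add to the counts was not tested. AARS, GARS, NARS and WARS are among those with a named pseudogene, so that the counts of these genes are uncertain by the reads such copies share, an amount that was not tested.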

How the data were processed

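Transcripts of BEAS-2B cells were measured in 4 libraries, 1 per group. Per the labels' protocols, each was prepared from total RNA, 1.3 µg, by a strand-marking method. The authors deposited a whole-number read count for every gene symbol. The submitters' processing notes name TopHat, Cufflinks and hg19, with no versions or roles. How reads were counted (tool, strand, shared reads, gene models) is not given in the sources used here. Groups follow the treatment in the labels.

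Counts were scaled to CPM by the library total, so that 1 count was worth 0.0571 to 0.0721 CPM, and 12887 to 13306 genes reached 1 CPM. Genes that reached CPM 1 in 1 library or both entered a comparison, log2(CPM + 1) values were compared, and a gene was called at 1.5-fold. Ratios named in the text are CPM ratios with exact 95% Clopper-Pearson intervals. No molecular identifiers are named, so intervals cover counting error only. With 1 library per group, a quasi-likelihood fit in edgeR was not possible and no p-value was computed. The members and lists were chosen with earlier results of these data known. Values in full went to members past 1.5-fold in a comparison, by largest log2 ratio, and to the cytosolic member whose largest difference was the smallest. Other members given in all 4 libraries were chosen after their values were seen. List genes past 2-fold at CPM 5 or more were named, up to 4 per list and comparison, and other list genes named were chosen after their values were seen. A gene list set beside WARS and 1 leukocyte marker are not reported here. Transcript lengths and overlaps came from GENCODE 29, and promoters from RefSeq, where the older symbols of the files were matched as synonyms. Alternatives were 3 other scalings, 2 other pseudocounts, other filters, a 2-fold threshold, removal of a trend with length and GC content, and control as the reference. Tools were Python 3.11.15, NumPy 2.4.6, SciPy 1.17.1, pandas 2.3.3, matplotlib 3.10.9, edgeR 4.0.16 for TMM factors, and R 4.3.3.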

Additional observations from a re-analysis of the deposited data

How the results depend on the processing

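The lower cytosolic calls against LPS depended in part on how libraries were scaled. Under the scalings by median ratio, by upper quartile and by TMM, 7, 7 and 6 of the 9 calls in siOCLN+LPS were kept, without MARS and WARS and, under TMM, without IARS. For the wtOCLN-labelled library, 7, 8 and 7 of 9 were kept, without NARS and, under median ratio and TMM, without MARS. Under these scalings, 10.2%, 11.1% and 10.1% of all tested genes were lower in siOCLN+LPS. In the wtOCLN-labelled library these shares were 9.34%, 10.9% and 9.25%. AARS, EPRS, GARS, SARS, TARS and YARS kept their 1.5-fold calls under every scaling, pseudocount, filter and reference tried, and after correction for length and GC content. At 2-fold, 5 cytosolic members were lower in siOCLN+LPS, where 3.92% of tested genes were, and 5 in the wtOCLN-labelled library, where 3.69% were.

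The cytosolic median log2 ratio to LPS was -0.30, -0.33 and -0.29 in siOCLN+LPS under the 3 scalings in the same order, and -0.28, -0.33 and -0.27 in the wtOCLN-labelled library. In LPS against control it turned positive, at 0.0156, 0.00824 and 0.0130. The summed cytosolic CPM became 2740.4, 2719.5 and 2741 in siOCLN+LPS, 2663, 2596 and 2665 in the wtOCLN-labelled library, 3847, 3900.3 and 3840.4 in LPS, and 3805, 3878 and 3806 in control. The mitochondrial sum became 570.5, 566 and 571 in siOCLN+LPS, 536, 523 and 537 in the wtOCLN-labelled library, 551, 559 and 550.6 in LPS, and 548, 559 and 548 in control. Scaling moved the median of all tested genes in siOCLN+LPS against LPS to 0.01, -0.02 and 0.01, where the library total gave -0.13. Of all calls, 37.3% were higher in siOCLN+LPS against LPS with the library total, and 56.2%, 52.2% and 56.6% with the scalings. These shares were 36.3%, 57.4%, 50.4% and 57.9% in the wtOCLN-labelled library, and 55.2%, 70.9%, 69.8% and 70.8% in LPS against control.

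Median ratio and TMM scaling each called 1 mitochondrial member, FARS2, higher in siOCLN+LPS, where 13.1% of all tested genes were higher under each. With control as the reference, 2 of 16 mitochondrial members were lower in siOCLN+LPS and 3 of 16 in the wtOCLN-labelled library. Of all tested genes, 21.6% were lower in each of these comparisons, so these counts do not set the members apart from other genes. Removing the length and GC trend called 1 mitochondrial member, CARS2, lower in the wtOCLN-labelled library. Of the members' values in the comparisons of each transfected library with LPS, under all alternatives, 690 kept their side of the threshold, 9 moved past it, 21 dropped inside it and 0 of the called ones reversed. No paired analysis was possible because each group has 1 library and the labels carry no replicate numbers, and no library could be left out of a group. The spread between cultures is unknown, and depth limits the mitochondrial members most, the smallest count being 89.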
